A study of Rattus norvegicus with 110 samples.

Results

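Liver RNA of F2 male rats that had received only olive oil was compared by the treatment of their sires, the F1 males. The comparison took every vehicle liver library of the series, 27 of 110 libraries: 14 males with a CCl4-treated F1 sire and 13 males with an F1 control sire, with the treatment of the F0 grandsire as a covariate. Members were chosen by group alone and not by any measured value.

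Carbon tetrachloride (CCl4) is turned by cytochrome P450 enzymes of the hepatocytes around the central vein into a radical that kills these cells, and repeated doses leave a wound-healing reaction in which stellate cells deposit collagen. The vehicle males had no such injury of their own, so that their livers report baseline expression in the sons of injured or uninjured sires. Males of an outbred stock also differ in genotype, and with few sires per group the genotype of a sire and his treatment cannot be told apart.

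All animals were outbred Sprague Dawley rats. F0 and F1 males received 50% CCl4 in olive oil or olive oil alone by oral gavage, at 0.5 mL/kg in 3 doses per week for 6 weeks, and were mated with untreated females after 2 weeks of recovery. The F2 males studied here received olive oil on the same schedule and were sampled after 39 days, having been first dosed at 9 to 11 weeks of age. Group 11 (cohort A) had an F0 control grandsire and an F1 control sire and held 7 males. Group 14 (cohort B, 7 males) had an F0 control grandsire and an F1-treated sire, group 17 (cohort C, 6 males) an F0-treated grandsire and an F1 control sire, and group 20 (cohort D, 7 males) treated males in both generations. The 27 males came from 26 litters and 17 F0 grandsires. Groups 11 and 14 shared 5 grandsires and groups 17 and 20 shared 3, whereas no grandsire crossed the F0 arms. The 4 necropsy dates were split between sons of treated and of control F1 sires as 4 and 4, 4 and 3, 2 and 2, and 4 and 4 males.

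Library totals ran from 32011243 to 49212897 estimated counts with a median of 38003195, and group medians from 33526590 (group 20) to 40332763 (group 11). No library was a copy of another. Of 31998 genes in the table, 17514 were tested. Gene symbols were known for 1486 of these (8.48%), all of them genes that the study had selected on its liver or kidney libraries, so counts of named genes are not independent evidence of direction. Of the hepatocyte markers listed for a check of the tissue, 0 of 7 had a symbol here, as did 4 of 7 pericentral markers (Glul, Cyp1a2, Rhbg and Slc1a2). The group medians of Slc1a2, a glutamate transporter, were 3.32 to 6.18 CPM (counts scaled to the normalized library total) in liver and 0.103 to 0.209 in kidney, and those of Lrp2, the megalin of the kidney tubule, were 10.6 to 17.3 CPM in liver and 3732 to 4340 in kidney, so the organ labels held for these markers.

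Treatment of the F1 sire went with a small set of differences in vehicle liver, most of them increases. At an adjusted p under 0.1 (edgeR's quasi-likelihood test with Benjamini-Hochberg adjustment) and a mean normalized count over 50, 70 genes were called (0.400% of genes tested). Of these, 63 were higher (0.360%) and 7 lower (0.0400%) in the sons of treated F1 sires. The higher genes included Fam193b, Arhgap33, a GTPase-activating protein, Notch1, a receptor of cell-cell signalling, Vegfa, the main growth factor of blood vessels, and Snrnp70, a core protein of the U1 particle that recognizes 5′ splice sites. The median log2 fold change of the 63 genes was 0.50, with a range of 0.25 to 1.24, and that of the 7 lower genes was −0.44, with a range of −4.34 to −0.31. The calls lay close to the threshold: their adjusted p ran from 0.0826 to 0.0994, with 29 genes tied at the lowest value, and the first gene outside had 0.101. At an adjusted p under 0.05 the count was 0, with 2460 genes at an unadjusted p under 0.05 (1318 higher, 7.53%, and 1142 lower, 6.52%).

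The count depended on single males and on the adjustment for dates. Leaving out 1 male at a time gave 0 to 254 calls, with 0 in 14 of 27 cases. The direction of 69 of the 70 genes was the same in each of the 47 settings compared, with Naaa as the exception. These settings refit the same libraries, or sets that hold most or all of them, and the genes were chosen there, which favours the same sign. A block for the necropsy date gave 444 calls (307 higher and 137 lower), and with the replicate number as a block 205 (163 higher and 42 lower, 68 of the 70 among them).

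Genes with a symbol were called more often than others, and they had been chosen on the study's libraries. Of 1443 such genes over the minimum mean count 47 were called (3.26%), against 23 of 10080 genes without one (0.228%). The 17 higher and 6 lower called genes without a symbol are described only by their values, except for the 2 with the largest change in each direction.

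Promoter sequences are shown for a gene of each main kind, to give the regions upstream of called genes: Fam193b and Notch1 were among the higher genes, and Naaa was the only lower gene with a symbol. The sequences are the 200 bases before the annotated start from RefSeq (GRCr8), printed 5′ to 3′ on the strand of the gene, with GC boxes (GGGCGG, or CCGCCC on the other strand) in capitals. They lie at chr17:9073033-9073232 on the + strand for Fam193b, at chr3:29721614-29721813 on the − strand for Notch1 and at chr14:16061399-16061598 on the + strand for Naaa.
Fam193b: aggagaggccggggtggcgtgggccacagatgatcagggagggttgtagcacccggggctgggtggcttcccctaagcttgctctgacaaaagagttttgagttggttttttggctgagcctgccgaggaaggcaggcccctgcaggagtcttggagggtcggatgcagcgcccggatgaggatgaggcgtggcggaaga
Notch1: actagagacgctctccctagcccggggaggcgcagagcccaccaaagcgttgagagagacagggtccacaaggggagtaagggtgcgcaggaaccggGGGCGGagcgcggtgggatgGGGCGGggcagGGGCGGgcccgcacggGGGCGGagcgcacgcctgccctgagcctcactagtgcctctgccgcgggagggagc
Naaa: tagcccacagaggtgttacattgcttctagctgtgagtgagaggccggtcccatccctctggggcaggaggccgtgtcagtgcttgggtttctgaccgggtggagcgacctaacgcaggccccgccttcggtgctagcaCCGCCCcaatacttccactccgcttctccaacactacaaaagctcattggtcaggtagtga
The Notch1 window held 4 GC boxes, the Naaa window 1 and the Fam193b window 0. Of the 46 higher genes with a symbol, 38 had a single promoter entry in the table, and 15 of these (39.5%) held a GC box, against 56.9% of 1026 genes with a symbol over the minimum mean that were not called and 28.6% of the 33469 promoters in the table. The TATA box, searched as TATAAA on the strand of the gene only, was found in 1 of the 38 (2.63%), against 3.22% and 6.59%. The median GC content of the 38 windows was 58%, with a range of 43% to 75%, against 63% and 52%. A match is a description of letters, not of a bound site.

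The gene with the smallest unadjusted p, Fam193b, had levels (CPM, with TMM normalization) of 6.28, 7.95 and 10.8 at the lowest, median and highest male in group 11, and 9.74, 14 and 19.6 in group 14. With an F0-treated grandsire the same 3 values were 8.40, 11.4 and 19.3 in group 17 and 12.9, 15.8 and 24.4 in group 20. The groups overlapped in each arm, and group 17 lay above group 11. The Fam193b log2 fold change was 0.73 (SE 0.14, adjusted p = 0.0826, unadjusted 1.74e-05 by edgeR), as 0.89 in group 14 against 11 and 0.56 in group 20 against 17. A permutation test of the males within F0 gave p = 0.00014, and exact permutation tests of the arms gave p = 0.00117 and 0.0385. Here and for the other called genes these p are for genes already chosen for a difference in the same males, which favours small values.

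Among the called genes with a symbol, Arhgap33 had the largest increase. Its CPM were 0.605, 0.970 and 1.19 in group 11, 1.05, 1.99 and 3.62 in group 14, 0.978, 1.89 and 3.5 in group 17 and 1.48, 3.15 and 5.54 in group 20 (lowest, median and highest). Group 11 barely overlapped group 14, while groups 17 and 20 overlapped widely. The log2 fold change was 0.97 (SE 0.222, adjusted p = 0.0826), 1.21 and 0.72 in the arms without and with F0 treatment, and exact permutation p were 0.00233 and 0.112. The F0 effect of Arhgap33, from the same libraries, was 0.84 (adjusted p = 0.0756 by edgeR).

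Tle2, Bahcc1 and Mier2 were among the 10 higher called genes with the largest change. Tle2, a corepressor of the Groucho family, had 2.26, 3.10 and 3.85 CPM in group 11, 2.65, 5.98 and 8.49 in group 14, 3.47, 5.35 and 7.67 in group 17 and 4.44, 6.69 and 10.2 in group 20. Bahcc1, a chromatin protein with a BAH domain, had 2.69, 3.93 and 4.51 CPM in group 11, 3.04, 7.13 and 8.16 in group 14, 2.33, 5.92 and 8.15 in group 17 and 6.96, 8.76 and 11.3 in group 20. In both genes the F1-treated median was above the F1 control median in both arms, and the values overlapped. The log2 fold changes were 0.70 for Tle2 (SE 0.168, adjusted p = 0.0882) and 0.70 for Bahcc1 (SE 0.156, adjusted p = 0.0826). Mier2, a partner of histone deacetylases, had 1.58, 2.65 and 4.08 CPM in group 11, 1.79, 4.43 and 6.30 in group 14, 3.07, 3.69 and 6.39 in group 17 and 4.17, 5.66 and 8.04 in group 20, with a log2 fold change of 0.67 (SE 0.168, adjusted p = 0.0994). Other called genes, chosen after their values were seen, had log2 fold changes of 0.66 for Fbrsl1, 0.61 for Fbrs, 0.60 for Crtc1, a coactivator of CREB, 0.56 for Tnrc18 and 0.49 for Mbd6. Ccdc9b had 0.835, 0.963 and 1.46 CPM in group 11, 1.02, 1.56 and 3.22 in group 14, 1.09, 1.51 and 2.07 in group 17 and 1.36, 2.38 and 3.57 in group 20, a log2 fold change of 0.77 (SE 0.182, adjusted p = 0.0871).

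Several called genes act on RNA and are given here as genes chosen after their values were seen, with no test of them as a class. Snrnp70 had 32.1, 37.1 and 47.3 CPM in group 11 and 43.8, 54 and 84.4 in group 14, then 41.0, 44.3 and 86.9 in group 17 and 57.9, 79.0 and 102 in group 20. Its log2 fold change was 0.62 (SE 0.131). Pnisr, a splicing-associated protein, had 15.7, 18.9 and 20.9 CPM in group 11, 18.5, 23.5 and 35.5 in group 14, 16.3, 21.4 and 37.5 in group 17 and 22.2, 37.3 and 41.6 in group 20, and a log2 fold change of 0.52. Luc7l3, a U1-associated protein, had medians of 16.9, 19.5, 16.4 and 25.3 CPM in groups 11, 14, 17 and 20 and a log2 fold change of 0.37. The increases were 0.51 for Clasrp, 0.42 for Sfswap and 0.37 for Prpf40b, which take part in splicing, 0.35 for Pabpn1, the nuclear poly(A)-binding protein, and 0.33 for Nxf1, the export receptor of mRNA. Polrmt, the RNA polymerase of mitochondria, had 0.52.

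Notch1, Vegfa and Irf3 are given next; Notch1 and Irf3 were chosen after their values were seen. Notch1 had 12.9, 13.8 and 16.4 CPM in group 11, 15.2, 20.6 and 23.2 in group 14, 8.20, 18.8 and 21.4 in group 17 and 18.8, 28.3 and 31.9 in group 20. Groups 17 and 20 overlapped and so did groups 11 and 14, each by part of its range. The log2 fold change was 0.54 (SE 0.112), as 0.47 and 0.61 in the arms. Vegfa had 80.6, 96.1 and 111 CPM in group 11, 97.4, 141 and 163 in group 14, 102, 126 and 189 in group 17 and 121, 171 and 178 in group 20, with a log2 fold change of 0.39 (SE 0.0945, adjusted p = 0.0882). Its differences were 0.50 in group 14 against 11 and 0.28 in group 20 against 17 (exact permutation p = 0.00175 and 0.0769), and the highest of the males of group 17 lay above every male of group 20. Irf3, a transcription factor of the interferon response, had medians of 37.9, 55.3, 54.1 and 60.5 CPM in groups 11, 14, 17 and 20 and a log2 fold change of 0.39.

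The other called genes with a symbol were of several kinds. Their log2 fold changes were 0.61 for Gigyf1, 0.59 for Leng8, 0.58 for Akap8l, 0.54 for Zfp692, 0.53 for Klhl17, 0.52 for Vamp1, a vesicle fusion protein, and 0.52 for Pla2g4b, a phospholipase. Plekhh3 had 0.50, Zfp219 0.50, Rexo1 0.50, Fam219a 0.48, Smtn, a protein of smooth muscle, 0.46, Adamts10, a secreted protease, 0.44, Atxn2l 0.43 and Zfp513 0.41. The smallest were Ccdc9 (0.40), Cc2d1a (0.39), Chpf2 (0.38), Vps52 (0.37), Armc5 (0.34), Dgkq, a diacylglycerol kinase (0.34), Rnf123 (0.33) and Tepsin (0.25). Each of these genes had a difference above 0 in both F0 arms.

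Of the 2 unnamed higher genes with the largest change, ENSRNOG00000053691.1 had 0.700, 1.28 and 1.70 CPM in group 11, 1.18, 1.90 and 9.03 in group 14, 0.489, 1.91 and 3.27 in group 17 and 1.76, 4.0 and 4.88 in group 20 (log2 fold change 1.24, SE 0.298, adjusted p = 0.0882). ENSRNOG00000062158.1 had 2.53, 4.36 and 9.38 CPM in group 11, 7.95, 9.06 and 17.1 in group 14, 3.31, 8.22 and 12.0 in group 17 and 6.59, 11.7 and 19.9 in group 20 (log2 fold change 0.86, SE 0.217, adjusted p = 0.0994). The first of these rests in part on 1 male of group 14.

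**Figure D1:**
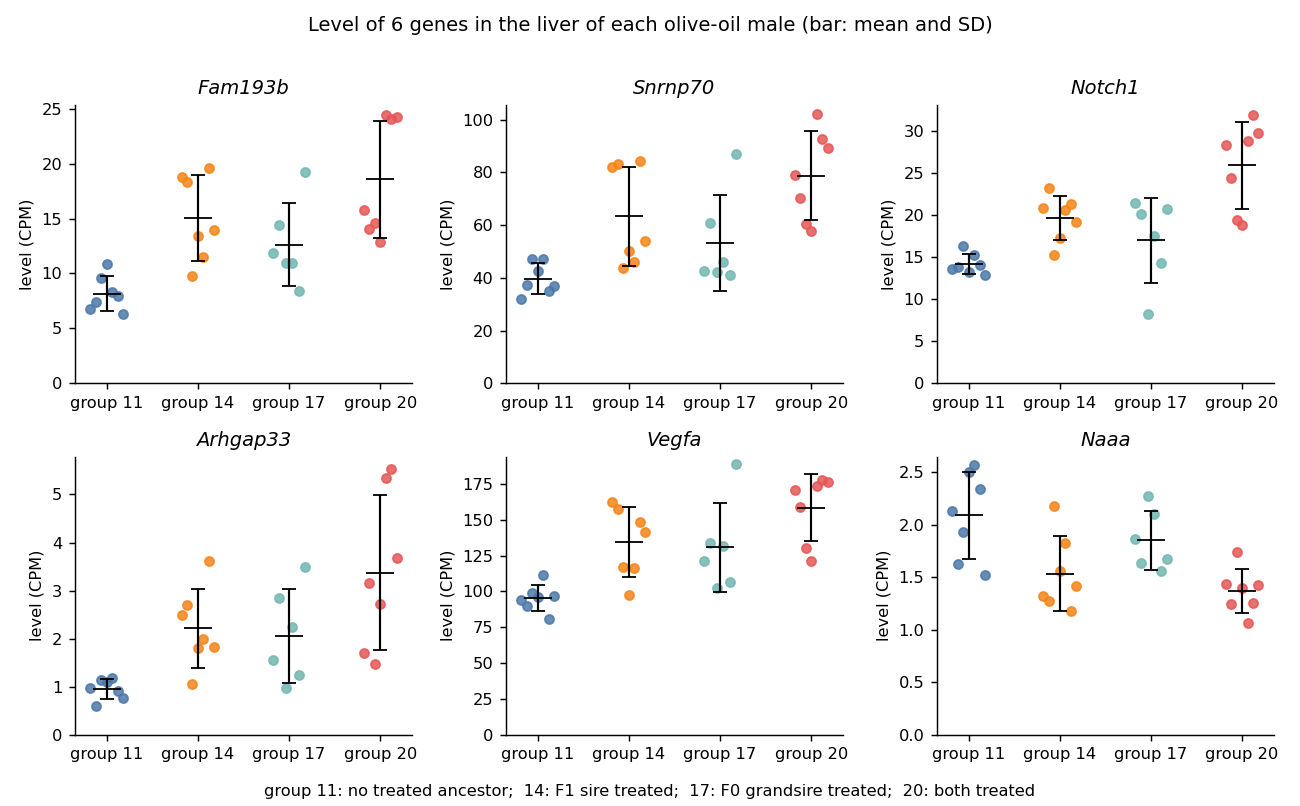
Levels of Fam193b, Snrnp70, Notch1, Arhgap33, Vegfa and Naaa in the liver of each vehicle male, in CPM on axes from 0, for groups 11, 14, 17 and 20, with a point for each male and a bar for the group mean with its SD. For Fam193b the medians are 7.95, 14, 11.4 and 15.8 CPM in groups 11, 14, 17 and 20. The ranges overlap within each F0 arm, while group 20 lies above group 11 without overlap.

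Of the 7 lower genes only Naaa, the lysosomal enzyme that breaks down N-acylethanolamines, had a symbol. Naaa had 1.52, 2.13 and 2.57 CPM in group 11, 1.18, 1.41 and 2.18 in group 14, 1.56, 1.77 and 2.27 in group 17 and 1.07, 1.40 and 1.74 in group 20. The groups overlapped in part in both arms. Its log2 fold change was −0.44 (SE 0.109, adjusted p = 0.0931), as −0.45 and −0.44 in the arms, with exact permutation p of 0.0216 and 0.00466.

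ENSRNOG00000003883.5 had a pattern of presence and absence. Its CPM were 0, 0.152 and 6.97 in group 11, 0, 0 and 0.989 in group 14, 0, 4.46 and 7.72 in group 17 and 0, 0 and 0.301 in group 20. Between 3.65 and 7.72 CPM were found in 6 males, all with an F1 control sire: replicates 4 and 5 of group 11 and replicates 1, 2, 4 and 10 of group 17. In kidney, 5 of these 6 males had 1.17 to 3.91 CPM and the other, replicate 4 of group 17, had 0. The fitted log2 fold change was −4.34 (SE 1.01, adjusted p = 0.0861), which depends on how values at 0 are handled and is no bound. ENSRNOG00000029881.5 had 0.970, 1.47 and 2.28 CPM in group 11, 0.847, 0.985 and 1.32 in group 14, 1.09, 1.73 and 5.52 in group 17 and 0.563, 1.02 and 1.58 in group 20, a log2 fold change of −0.83 (SE 0.207, adjusted p = 0.0984).

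The arms without and with F0 treatment share no library and were set side by side. Each of the 63 higher genes was higher in group 14 than in group 11 (median log2 difference 0.52, 0.23 to 1.44) and in group 20 than in group 17 (0.42, 0.24 to 1.02); selection on the mean of both arms favours genes with both values above 0. All 63 in the first arm and 55 in the second had an unadjusted p under 0.05 (background 5.77% and 4.12% for higher genes), with lowest adjusted p of 0.205 and 0.317. Neither arm gave a call by itself: in group 14 against 11 edgeR called 0 genes with 1472 at an unadjusted p under 0.05 (8.40%), while DESeq2 called 93 and limma-voom 0. For group 20 against 17 the numbers were 0, 2363 (13.5%), 10 and 0. With the necropsy date as a block the latter comparison gave 805 calls (172 higher and 633 lower) and with the replicate block 0. Of the 63 genes 2 did not overlap between groups 14 and 11 (background 0.114% of genes tested), 0 between groups 20 and 17 (background 0.154%) and 0 between all 14 and 13 males (background 0%). In the higher direction the backgrounds were 0.0628% and 0.0799%. The 7 lower genes were lower in both arms, with medians of −0.45 and −0.44.

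**Figure D2:**
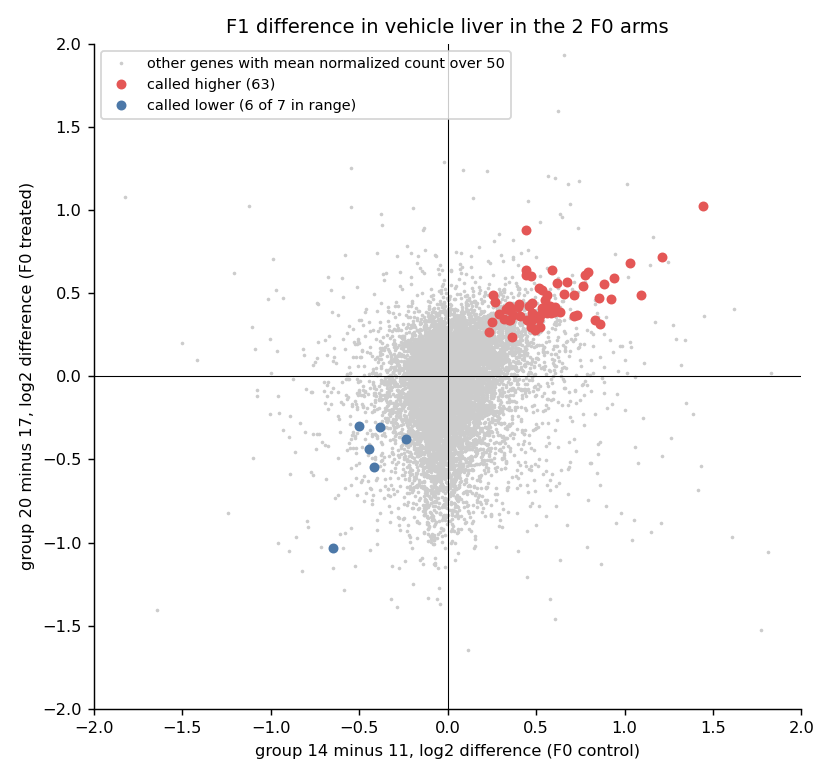
Log2 fold change of each gene over the minimum mean count in group 20 against 17 (vertical axis) and in group 14 against 11 (horizontal axis), 11523 genes, with the called higher genes in red and the called lower genes in blue. The 63 higher genes lie to the upper right at medians of 0.52 and 0.42, and 17 genes outside 2 on either axis are not drawn.

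The F0 by F1 interaction, which asks whether the F1 difference changed with the grandsire's treatment, gave 0 calls by edgeR, with 940 genes at an unadjusted p under 0.05 (5.37%), 5 by DESeq2 and 0 by limma-voom. Over the 63 higher genes the interaction had a median of −0.12 on the log2 scale, a range of −0.61 to 0.44 and no gene at an unadjusted p under 0.05 (lowest adjusted p 0.783). The 10 genes with the smallest interaction p had no symbol, with the same adjusted p of 0.783, and are not named. The F0 effect of the 63 genes, estimated from the same libraries, had a median of 0.32 (−0.065 to 0.836). Of the 63, 60 were above 0, against 53.9% of all genes over the minimum mean. A symbol was known for 46 of the 63, which the study had selected for an F0 effect on its libraries.

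Group 11, without treatment in either generation, stood lowest in these genes. The mean log2 deviation of the 63 genes from the mean of all males was −0.492, −0.366 and −0.202 at the lowest, median and highest male of group 11, and −0.283, 0.0555 and 0.342 in group 14. In group 17 the values were −0.466, −0.0245 and 0.218, and in group 20 they were 0.110, 0.251 and 0.599. Group 20 lay above group 11 without overlap, whereas groups 14 and 17 overlapped with both and with each other. As the genes were chosen on these libraries, the values describe them and test nothing.

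Sons of treated sires were compared on each necropsy date, since the males of a date were handled together. The median log2 difference of the 63 genes was 0.41, 0.32, 0.40 and 0.57 on dates 1 to 4, and all 63 genes were above 0 on each date. The genes were chosen for a high value in these same males, which favours values above 0 on each date. The 7 lower genes were below 0 in 7, 7, 6 and 7 cases. The median of all genes tested lay between −0.015 and −0.0016 on the 4 dates.

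The average transcript length that Salmon assigned to the 63 genes also differed between the groups, with group 11 below the other 3. Over the 63 genes the F1 difference of length had a median of 0.075 on the log2 scale (−0.063 to 0.181), with 55 above 0 (87.3%), and over the 7 lower genes a median of −0.011. Over all genes above the minimum mean the median was 0.0017, with 53% above 0. The median of the length deviation per library was −0.0825, 0.0394, 0.0505 and 0.0825 in groups 11, 14, 17 and 20, and its means were −0.108, 0.0345, 0.0432 and 0.048. With lengths as offsets edgeR called 0 genes, with 2127 at an unadjusted p under 0.05. The 63 genes then had a median of 0.41 (0.21 to 1.12), each with an unadjusted p under 0.05, and adjusted p of 0.14 to 0.299. With length offsets and the date block together, chosen after seeing the data, 232 genes were called, 67 of the 70 among them.

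**Figure D3:**
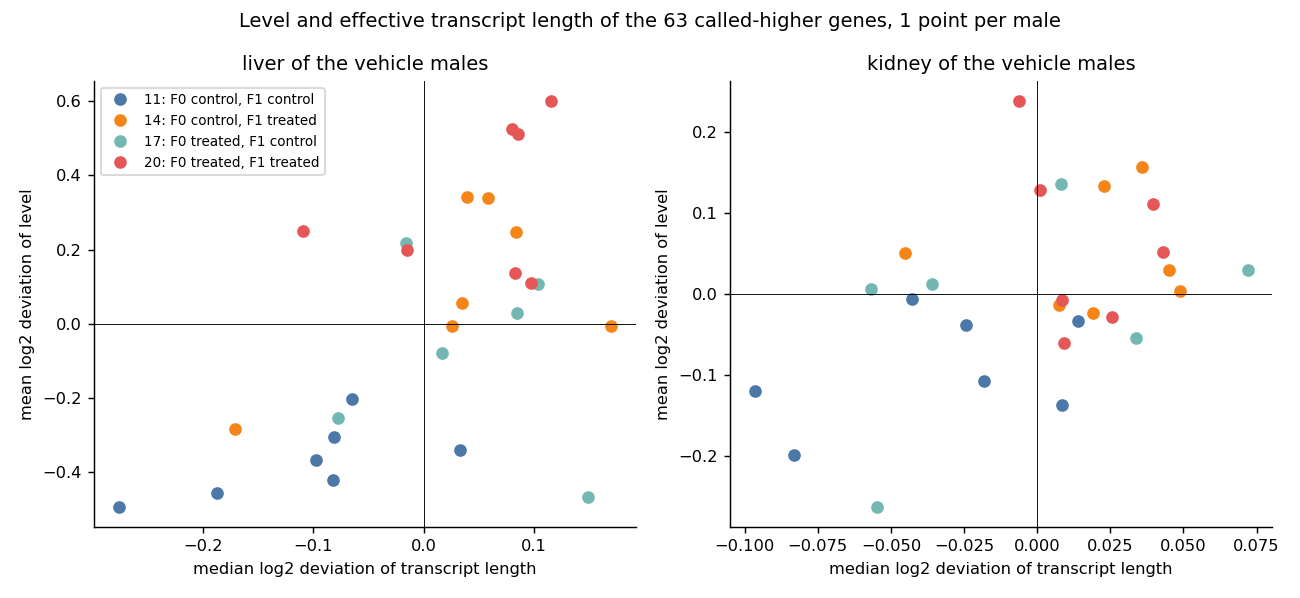
Mean log2 deviation of the level of the 63 higher genes (vertical axis) against the median log2 deviation of their average transcript length (horizontal axis), with a point for each male coloured by group, in liver (left) and kidney (right). In liver, group 11 lies low on both axes, with medians of −0.366 and −0.0825, and group 20 lies high on the vertical axis with a median of 0.251.

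Males given CCl4 were the libraries that this comparison had not used. The study's scheme drew several F2 males from each F1 litter and spread them over dose groups where possible. The dosed males are therefore no independent sample of sires. In the low-dose males (8%) the 63 higher genes had F1 differences with a median of 0.056 on the log2 scale (−0.11 to 0.24). Of these, 53 were above 0, against 46.2% of all genes over the minimum mean, and 0 had an unadjusted p under 0.05. Over all 19004 genes tested there edgeR called 0, with 462 at an unadjusted p under 0.05 (2.43%), and DESeq2 1. In the high-dose males (50%) the median was −0.021 (−0.31 to 0.40), with 27 of the 63 above 0, against 46.2% of all genes over the minimum mean. There 199 genes were called (1.05%; 182 higher, 0.958%, and 17 lower, 0.0895%), and 1 of the 63 was among them: Smtn, at 0.40 (adjusted p = 0.0817). Of the 63, 1 was higher and 1 lower at an unadjusted p under 0.05 (background 6.05% and 2.13%). Of the 7 genes lower in vehicle liver, 2 were lower at an unadjusted p under 0.05, and 4 lay above 0 (median 0.048). Vegfa had −0.17 and Fam193b −0.067 in the high-dose males, and Arhgap33 −0.081.

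The difference from the vehicle effect was tested for each gene in the fit of all 83 liver libraries. All 63 genes had a smaller F1 difference in the low-dose males than in the vehicle males, 58 at an unadjusted p under 0.05 (background 2.46% for that direction), and adjusted p ran from 0.911 to 0.956. The high-dose difference was also smaller for all 63, 58 at an unadjusted p under 0.05 (background 4.23%), with adjusted p from 0.105 to 0.987. As the genes were chosen for a high value in vehicle, lower values elsewhere are favoured by that choice. Over all genes edgeR called 0 for low dose against vehicle, with 1001 at an unadjusted p under 0.05 (5.27%), and 0 for high dose against vehicle, with 1948 (10.3%), while DESeq2 called 2 and 100.

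The kidneys of the same 27 males had been sequenced too. There edgeR called 0 of 18374 genes for the F1 effect, with 1225 at an unadjusted p under 0.05 (6.67%), and DESeq2 called 0. The 63 genes had a median of 0.12 on the log2 scale (−0.31 to 0.46), with 55 of them above 0, against 47% of all genes over the minimum mean. Of the 63, 22 had an unadjusted p under 0.05, all higher (background 4.52% for that direction), and the lowest adjusted p was 0.559. Tle2 had 0.46 in kidney (unadjusted p = 0.0154 by edgeR) and Plekhh3 0.24 (0.000813), while Vegfa had 0.020 and Fam193b and Arhgap33 0.12 each. Since the organs are from the same males, dates and sires, kidney is no independent sample of sires. The F1 difference of transcript length over the 63 genes was 0.036 in kidney, 0.0074 in low-dose liver and 0.011 in high-dose liver.

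**Figure D4:**
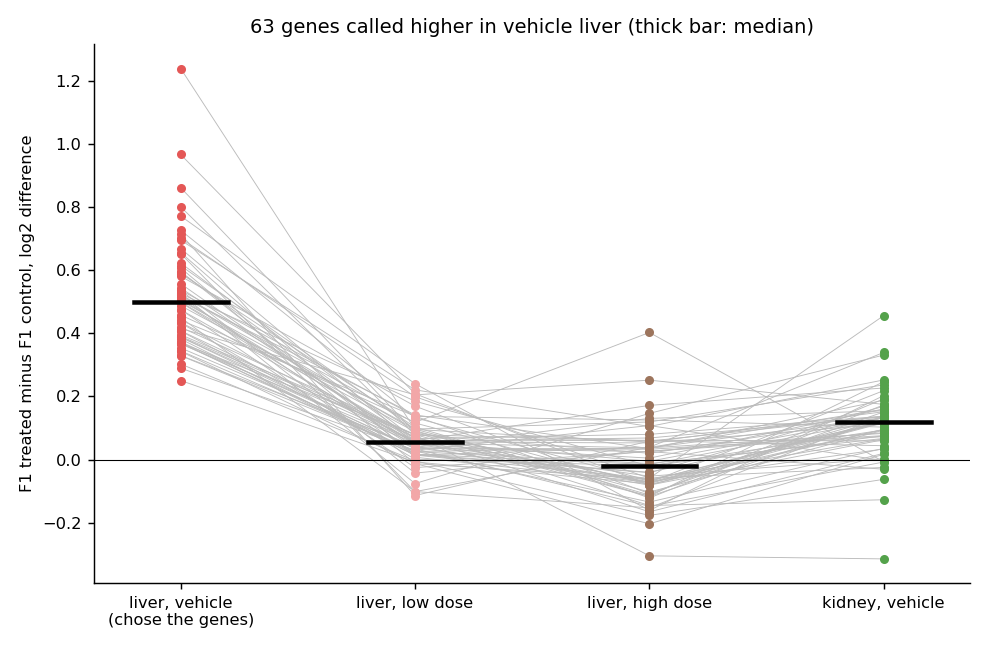
F1 difference of the 63 higher genes, as log2 fold change, in vehicle liver, low-dose liver, high-dose liver and vehicle kidney, with a point for each gene, a thin line joining the values of a gene and a thick bar for the median. The medians are 0.50, 0.056, −0.021 and 0.12, and the first is high by the choice of the genes.

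The first 4 principal components of the vehicle livers (1000 most variable genes) held 15.5%, 9.41%, 7.1% and 6.46% of the variance. The F0-adjusted F1 difference was 3.20 on PC1, 5.64 on PC2, −2.69 on PC3 and −3.42 on PC4. The group means on PC2 were −9.63 in group 11 and 0.118 in group 14, against 4.48 in group 17 and 5.67 in group 20, so the difference lay mostly in the arm without F0 treatment; the difference between the arms was not tested. On PC2 a permutation test within F0 gave p = 0.017, or 0.0679 after adjustment over the 4 components, and with all tested genes the difference was 11.9 with an adjusted p of 0.0106. Replicate 4 of group 17 stood apart on PC1 at −39.9, with the others of its group between 0.444 and 5.97. Without this male the difference was 4.89 on PC1 (adjusted permutation p = 0.184) and 4.67 on PC2 (0.226).

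**Figure D5:**
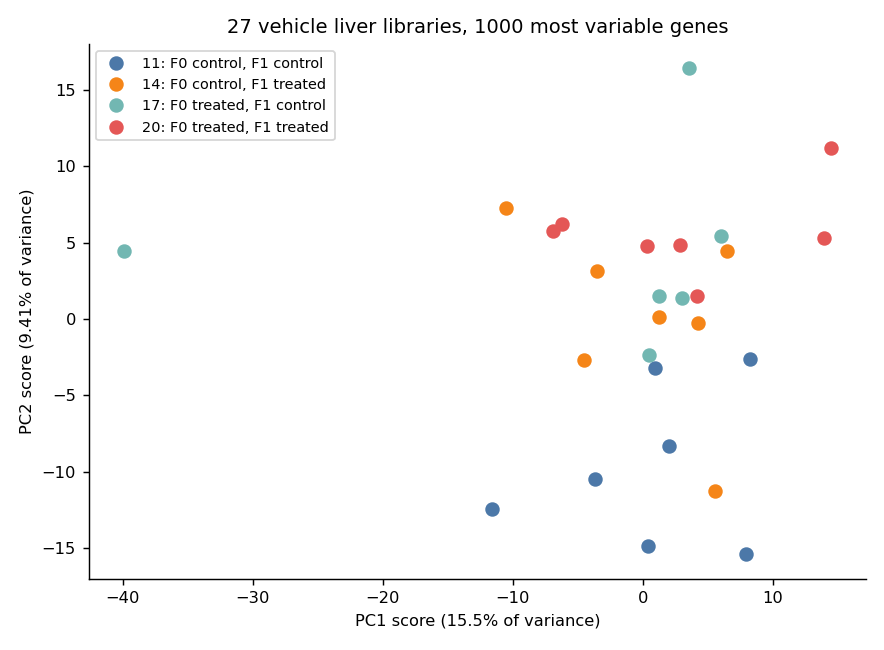
Scores of the 27 vehicle livers on PC1 (15.5% of the variance) and PC2 (9.41%), by group. Replicate 4 of group 17 lies at −39.9 on PC1, and the group means on PC2 are −9.63, 0.118, 4.48 and 5.67 in groups 11, 14, 17 and 20.

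Of 9 genes that the study examined for an ancestral effect, only Vegfa was called by edgeR. DESeq2 and the replicate block each called 2 of the 9, in fits that called 371 and 205 of the 17514 genes tested. Ski, a corepressor of TGF-beta signalling, had a log2 difference of 0.36 (SE 0.112, adjusted p = 0.172 by edgeR), as 0.54 and 0.16 in the arms; its adjusted p was 0.0882 by DESeq2, 0.0557 with the date block and 0.0923 with the replicate block. Hells, a chromatin remodeller listed together with LOC100911660, had 0.27 (adjusted p = 0.409), as 0.57 and −0.055. Values for the others that missed the threshold were 0.39 for Slc10a2, a bile acid transporter (adjusted p = 0.413), 0.05 for Il17ra, −0.17 for Ahr (−0.28 without replicate 9 of group 14 and −0.078 without replicate 4 of group 11), −0.31 for Acer2, a ceramidase (0.315), −0.36 for Lpin1, a phosphatidate phosphatase (0.522; −0.63 without replicate 9 of group 14), and −0.80 for Zbtb16 (SE 0.451, adjusted p = 0.414). With the grandsire as a fixed block Zbtb16 had −1.52 (adjusted p = 0.254 by edgeR), and a permutation test within F0, not adjusted over genes, gave p = 0.0495. The same permutation test gave p = 0.00052 for Vegfa, 0.00273 for Ski and 0.0266 for Acer2, and over 0.05 for the rest of the 9. The study had chosen these 9 genes on these libraries.

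Of 443 symbols in the lists of liver genes, 100 were measured under a symbol, and Vegfa was the 1 called. In all lists below, measured means matched by a symbol. A listed gene without one could not be looked up and may still have been tested or called. At an unadjusted p under 0.05, 15 were higher and 8 lower (backgrounds of 7.53% and 6.52% over all genes tested), and the median log2 difference of the 100 was −0.00039, against −0.0098 over all genes above the minimum mean. Listed genes measured here all carry a symbol. Such genes over the minimum mean were called more often (3.26%) than those without (0.228%), and their median difference was 0.040, against −0.015. The backgrounds over all genes are therefore no like comparison for the lists. Of 34 ribosome biogenesis genes 30 were measured, 15 above and 15 below 0, with a median of −0.0024. The 8 of 14 genes induced by glucocorticoids had a median of −0.24, 7 below 0 and 0 at an unadjusted p under 0.05, and all 8 were below 0 with the grandsire as a fixed block (median −0.41, 1 at an unadjusted p under 0.05) and with the replicate block (−0.29, 2). Values were −0.64 for Tsc22d3, −0.52 for Per1 and −0.31 for Tat. Per1 had −0.96 without replicate 9 of group 14 and −0.29 without replicate 1 of group 17, and Tat −0.20 without the latter. Of 18 histone demethylases 8 were measured, 4 above 0 and 3 of these at an unadjusted p under 0.05 (background 7.53%): Kdm6b 0.44 (adjusted p = 0.205), Kdm4b 0.31 (0.161) and Kdm4a 0.28. All 4 of 11 measured genes of DNA methylation were above 0, with Tet3, which oxidizes methylcytosine, at 0.42 (adjusted p = 0.218).

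Genes of the circadian clock, 10 of 20 measured, were divided at 5 above and 5 below 0. Dbp, an output gene of the clock, had 1.14, 2.21 and 2.67 CPM in group 11, 1.62, 2.15 and 9.32 in group 14, 2.73, 4.11 and 8.77 in group 17 and 3.89, 8.07 and 19 in group 20, a log2 difference of 0.91 (adjusted p = 0.168). Nr1d1, a repressor of the clock, had 0.86 (0.277), Per3 0.80 (0.208), Arntl −0.16 and Usp2 −0.57 (−0.89 without replicate 9 of group 14). By edgeR none of the 10 was called. DESeq2 and the replicate block each called 1 higher, in fits that called 371 and 205 of the 17514 genes tested. The time of day of necropsy of single males is not given in the sources used here, and its part was not tested.

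Among the xenobiotic genes, 3 of 21 were measured under a symbol. Cyp1a1, a cytochrome induced through the aryl hydrocarbon receptor, had 64.0 CPM in the liver and 24.1 CPM in the kidney of replicate 5 of group 14, and at most 0.579 CPM in every other vehicle liver. Its log2 difference was 3.47 (adjusted p = 0.205) and 0.28 without that male. Cyp1a2 had 0.80 (adjusted p = 0.297), with a highest level of 3699 CPM in group 14, and 0.18 without that male. Of 14 genes listed for NRF2, a regulator of antioxidant genes, 2 were measured, with Osgin1 at 0.71 (adjusted p = 0.271) and Nfe2l2, which encodes NRF2, at 0.30, and Insig1, a regulator of cholesterol synthesis, had −0.99 (0.172). Of the 3 cholesterol synthesis genes measured, DESeq2 and the fixed grandsire block each called 1 lower. These fits called 371 and 150 of the 17514 genes tested.

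Markers of other cell types were matched by a symbol in few cases, and edgeR called none of those matched. Unmatched markers may still have been tested. Over all 17514 genes tested, edgeR called 70, DESeq2 371, the fixed grandsire block 150 and the replicate block 205. Of 8 Kupffer cell and macrophage markers 2 were measured, Cd5l at −0.40 (adjusted p = 0.235) and Cd163 at −0.16, and of 8 T and NK cell markers 1, Cd4 at −0.31 (0.125), which DESeq2 and the fixed grandsire block called lower. Cd163 had −0.24 without replicate 4 of group 17. Of 17 genes of inflammation and macrophages 4 were measured, 3 below and 1 above 0, with Adgre1 at −0.36 (0.199) and Cd14 at 0.051, and DESeq2 called 1 of the 4 lower. Cd14 had −0.0095 without replicate 5 of group 14 and 0.14 without replicate 1 of group 17. Of 8 cholangiocyte markers 2 were measured, both above 0. Of these, 1 had an unadjusted p under 0.05 (background 7.53% for higher genes over all tested) and was called with the replicate block. The 1 of 8 endothelial markers measured had 0.094 (0.034 without replicate 4 of group 17), and the 1 of 8 adipose and muscle markers −0.19. The 2 of 9 kidney markers measured were Lrp2 at 0.035, with −0.063 without replicate 4 of group 17 and 0.16 without replicate 10 of group 11, and another at 0.35. In bulk liver, fewer cells of a type and less RNA per cell cannot be told apart, and the part of cell makeup in the called genes was not tested.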

How the data were processed

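RNA of 27 vehicle livers was the main measurement, with the other liver libraries and 27 vehicle kidneys beside it. The authors prepared TruSeq Stranded mRNA libraries, quantified transcripts of the Ensembl rat annotation with Salmon 0.14.0 and passed the estimates to gene level through tximport in R 3.5.0. The deposited tables hold estimated counts, rounded and not normalized, and average transcript lengths, which the authors obtained per gene and library from the same estimates and which were used here only as offsets and descriptions. Extraction batches of the sequenced RNA are not given in the sources used here. Counts were analysed in R 4.3.3 with edgeR 4.0.16 (TMM, quasi-likelihood), limma 3.58.1 and DESeq2 1.42.0. The unit was planned as counts; estimated counts entered as deposited, being whole numbers.

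Testing took genes whose counts summed to more than 10 in any vehicle group, with terms for F0 and F1. Calls were made at an adjusted p under 0.1 (Benjamini-Hochberg over all genes tested) and a mean normalized count over 50. The arms and the interaction came from fits with 4 groups, and the doses from a 12-group fit of 83 libraries. Single genes were tested two-sided on log2(CPM + 1) by permutation of F1 labels within F0 (100000 resamples) or by exact enumeration within an arm. Principal components used variance-stabilized values. The rule for naming took the 10 genes with the largest change in each direction among the calls, the study's 9 genes and up to 4 members per list. It also took the genes with the smallest interaction p, which had no symbol and are not named. Genes named beyond this rule were chosen after their values were seen. Members and lists were chosen with earlier results of these data known. Symbols came from the pairs of identifier and symbol in the study's supplementary data.

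Males with the same replicate number in different groups shared a necropsy date in the study's scheme, which is the source of the pairing. The residuals of 39 same-numbered pairs had a median correlation of 0.030, with 8 over 0.1, against 0.036 for 33 other pairs of the same date and −0.013 for 201 pairs of other dates. Males are separate animals, but 2 share a litter and several a grandsire. Alternatives covered the test, normalization, filters, threshold, blocks, libraries left out and length offsets. Only the edgeR fit was tried on simulated libraries. These were drawn independently, without shared litters, grandsires or dates, so the trial does not bear on those.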

Additional observations from a re-analysis of the deposited data

Results flagged for a closer look

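In each group of 6 or 7 males, the highest and the lowest CPM of each gene named here and the highest and lowest scores on the 4 principal components and in the mean deviation of the 63 genes were compared with the rest of the group. In 29 of 360 comparisons of this kind the gap to the nearest male exceeded Dixon's 95% limit. That limit allows about 1 in 20 for independent normal values. CPM were not transformed and need not be normal, and genes of a male are related, so the count is no test of an excess. Among genes called by edgeR for the F1 effect, replicate 9 of group 14 had 9.03 CPM of ENSRNOG00000053691.1 (next 4.06), replicate 1 of group 14 had 0.989 CPM of ENSRNOG00000003883.5 (next 0.248) and replicate 4 of group 17 had 5.52 CPM of ENSRNOG00000029881.5 (next 2.31). Replicate 10 of group 17 was highest of its group in Vegfa at 189 CPM (next 134), Pnisr at 37.5 CPM (next 23.7) and Vamp1 at 3.32 CPM (next 2.29). Replicate 4 of group 14 was lowest of its group in Armc5 at 9.24 CPM (next 13.5), Polrmt at 9.66 CPM (next 17.7) and Zfp219 at 4.91 CPM (next 8.76). Replicate 10 of group 14 had 3.64 CPM of Plekhh3 (next 2.80), replicate 7 of group 11 had 49.9 CPM of Dgkq (next 43.0) and replicate 5 of group 11 had 50.0 CPM of Irf3 (next 41.6), each the highest of its group.

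Among the other genes, replicate 9 of group 14 was highest of its group in Lpin1 at 217 CPM (next 92.2), Per1 at 33.9 CPM (next 9.72) and Usp2 at 38.1 CPM (next 12.7). Replicate 2 of group 14 had 9.32 CPM of Dbp (next 3.64) and 58.6 CPM of Nr1d1 (next 16.6), and replicate 2 of group 17 had 8.77 CPM of Dbp (next 4.68). Replicate 5 of group 14 had 64.0 CPM of Cyp1a1 (next 0.579) and 3699 CPM of Cyp1a2 (next 617). Replicate 4 of group 17 had 7.99 CPM of Ski (the lowest of its group, next 16.7), 141 CPM of Cd5l (next 80.0), 72.5 CPM of Tsc22d3 (next 30.4) and a PC1 score of −39.9 (next 0.444). The remaining ones were replicate 10 of group 20 with 68.8 CPM of Tsc22d3 (next 23.2), replicate 7 of group 14 with 23.5 CPM of Adgre1 (next 16.8), replicate 10 of group 11 with 24.5 CPM of Lrp2 (next 12.9), replicate 5 of group 11 with 5.32 CPM of Tet3 (the lowest of its group, next 7.39) and replicate 1 of group 11 with a PC3 score of 14.2 (next 3.32).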

How the results depend on the processing

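The count of F1 calls, 70 as reported, was 0 at an adjusted p under 0.05, with length offsets, with no filter beyond any count, with F1 as the sole term, and without necropsy date 1, 3 or 4. It was 371 by DESeq2 (69 shared), 31 with DESeq2's size factors, 150 with the grandsire as a fixed block (44 shared), 188 as a correlated block (69 shared), 106 with 1 library per litter (69 shared), 9 in all 83 liver libraries with dose (2 shared) and 1073 without necropsy date 2. With the necropsy date as a block it was 444, with date and length offsets together, chosen after seeing the data, 232, and with the replicate block 205. It stayed between 59 and 81 with limma-voom (62), 2 other filters (81 and 59), no minimum mean (81) and the 12-group fit (65). Leaving out 1 male gave 0 to 254 calls for F1, 0 to 19 for group 14 against 11, 0 to 0 for group 20 against 17 and 0 to 0 for the interaction. Without replicate 1, 2, 4, 5, 9 or 10 of group 11, replicate 1, 2 or 9 of group 14, replicate 7 or 9 of group 17, or replicate 7, 9 or 10 of group 20 the F1 count was 0; it was 21 without replicate 10 of group 14, 254 without replicate 4 of group 14, 241 without replicate 10 of group 17 and 126 without replicate 4 of group 20. DESeq2 called 93 genes for group 14 against 11, 10 for group 20 against 17, 5 for the interaction, 1 for low dose, 2 and 100 for low and high dose against vehicle. Group 14 against 11 gave 323 and group 20 against 17 gave 3 calls without date 2; the latter gave 805 with the date block and 1107 with date and length offsets. The high-dose count was 131 at an adjusted p under 0.05, and high dose against vehicle gave 6 with length offsets. Calls among the listed genes, 1 as reported, were 7 by DESeq2, 0 with length offsets, 3 with the fixed grandsire block and 6 with the replicate block. The PC2 difference was 11.9 over all tested genes (adjusted permutation p = 0.0106, against 0.0679 as reported) and 5.45 on log2 CPM (0.318), where PC4 had −9.14 (0.0837). PC3 had 8.61 on log2 CPM and 1.78 without replicate 4 of group 17, and PC4 then had 1.68, both of the opposite sign to the reported values; sign and order of components are arbitrary between decompositions. Naaa changed sign to 0.00015 in the fit of all 83 liver libraries. The causes were not tested. Calls required a mean normalized count over 50, so genes below that depth were not considered.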
